A study of Homo sapiens with 12 samples.

Results

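The genes of WNT signalling that act at the cell surface and at its nuclear end were followed in A375 melanoma cells. The cells were wild-type or knocked out for the kinase gene MAPKAPK2, with and without the BET bromodomain inhibitor JQ1. The genes were taken by symbol from the deposited table of estimated counts: the WNT ligands, the Frizzled (FZD) receptors, the co-receptors LRP5, LRP6, ROR1 and ROR2, the secreted antagonists SFRP1, SFRP2, SFRP4, SFRP5 and DKK1 to DKK4, the R-spondins RSPO1 to RSPO4, the transcription factors TCF7, TCF7L1, TCF7L2 and LEF1, and the feedback genes AXIN2, NKD1, RNF43 and ZNRF3. The table held 53 of these genes among 56609 symbols. Of the 53, 33 passed a filter on low counts and were tested, among 21698 genes tested in all, and 20 were too low to test.

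A375 is an established human line from a malignant melanoma. Wild-type cells, and cells in which CRISPR/Cas9 had knocked out MAPKAPK2 (it encodes MK2, a kinase of the stress response), were treated for 48 h with JQ1 at 500 nM or with the solvent DMSO as control. JQ1 displaces BET proteins from acetylated chromatin. Each of the 4 groups had 3 replicates; all were the same line, and the labels do not say whether the knockout cells were 1 clone, a pool or several clones. The labels also do not say whether replicates were separate cultures, so the p-values measure the spread between these samples, which may be technical.

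WNT proteins are secreted, lipid-modified ligands that bind Frizzled receptors. With LRP5 or LRP6 beside the Frizzled, the signal stabilises β-catenin, which enters the nucleus and switches on genes through the TCF/LEF factors; AXIN2, NKD1, RNF43 and ZNRF3 are among those genes or act as brakes on the signal. WNT5A and the ROR receptors are best known for β-catenin-independent signalling, SFRP proteins bind WNTs outside the cell, and DKK1 binds LRP5 and LRP6. In melanoma, WNT5A with ROR2 is known for its link to invasive behaviour, and LEF1 and TCF7L2 for their link to different cell states.

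Library totals ran from 25316900 to 34594300 estimated counts, of which the 53 genes held 0.106% to 0.129%. Replicates differed by a chi-square of 3.35 to 7.64 per degree of freedom across tested genes, except that knockout JQ1 replicate 3 differed from its replicates by 26.1 and 27.5; no libraries were identical. MAPKAPK2 itself had a log2 knockout effect of -2.85 in DMSO and -3.02 in JQ1, in the direction of the labels. Its mean level was 89.6 CPM (counts per 1000000 of the scaled library) in wild-type DMSO and 117 CPM in wild-type JQ1. In the knockout it was 12.4 CPM in DMSO and 14.4 CPM in JQ1, so the transcript was lowered and not absent. Of 12 melanocytic markers, 6 or 7 had a mean of at least 1 CPM in each group. SOX10, MITF, S100B, CSPG4 and MIA were among these, while the pigment genes PMEL, MLANA, TYR, TYRP1 and DCT were near or below 1 CPM. Summed levels were 4.0 to 7.31 CPM for 7 keratinocyte markers, 0.852 to 2.86 CPM for 4 endothelial markers and 1.79 to 3.85 CPM for 5 leukocyte markers; 2 to 4 of the keratinocyte markers had 0 counts in a group. The endothelial sum was 2.80 to 2.86 CPM in wild-type DMSO against 1.29 to 1.48 CPM in wild-type JQ1, 1.57 to 2.11 CPM in knockout DMSO and 0.852 to 1.68 CPM in knockout JQ1. The leukocyte sum was 3.7 to 3.79, 1.79 to 2.10, 3.19 to 3.85 and 2.03 to 2.40 CPM in the same order; their part in the JQ1 and knockout results was not tested. In these bulk libraries, fewer cells with a transcript and less of it per cell cannot be told apart.

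The promoters of 4 genes are shown first because the results below turn on these genes: WNT9A, ROR1 and FZD8, which were higher with JQ1 in both genotypes, and DKK1, which was lower in the knockout under both treatments. RefSeq windows of 300 bases (GRCh38.p14; 250 bases before to 50 after the annotated start) were found for 36 of the 53 genes. WNT9A's window is chr1:227947883-227948182 on the minus strand, ROR1's is chr1:63773767-63774066 on the plus strand, FZD8's is chr10:35642247-35642546 on the minus strand and DKK1's is chr10:52314031-52314330 on the plus strand. Capitals mark motif matches (TATAAA in FZD8 and DKK1; CTTTGAA and CTTTGTT in DKK1), and all sequences read 5′ to 3′ along the gene.
WNT9A: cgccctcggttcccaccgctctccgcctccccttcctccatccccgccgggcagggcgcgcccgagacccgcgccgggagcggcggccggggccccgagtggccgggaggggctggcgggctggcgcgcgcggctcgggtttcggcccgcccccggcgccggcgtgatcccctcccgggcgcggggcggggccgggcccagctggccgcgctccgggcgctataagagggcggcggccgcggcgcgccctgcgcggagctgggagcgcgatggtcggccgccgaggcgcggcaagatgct
ROR1: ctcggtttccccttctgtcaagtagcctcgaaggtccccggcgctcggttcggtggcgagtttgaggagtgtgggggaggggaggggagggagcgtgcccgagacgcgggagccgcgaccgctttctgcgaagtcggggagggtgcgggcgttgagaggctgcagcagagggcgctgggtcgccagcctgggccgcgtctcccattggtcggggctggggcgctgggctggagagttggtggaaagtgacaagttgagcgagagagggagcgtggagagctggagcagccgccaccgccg
FZD8: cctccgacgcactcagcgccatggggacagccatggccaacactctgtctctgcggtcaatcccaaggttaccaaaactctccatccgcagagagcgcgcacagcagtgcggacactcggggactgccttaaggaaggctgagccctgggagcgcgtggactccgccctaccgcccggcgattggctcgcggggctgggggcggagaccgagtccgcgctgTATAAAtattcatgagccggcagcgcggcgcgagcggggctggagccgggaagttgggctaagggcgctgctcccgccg
DKK1: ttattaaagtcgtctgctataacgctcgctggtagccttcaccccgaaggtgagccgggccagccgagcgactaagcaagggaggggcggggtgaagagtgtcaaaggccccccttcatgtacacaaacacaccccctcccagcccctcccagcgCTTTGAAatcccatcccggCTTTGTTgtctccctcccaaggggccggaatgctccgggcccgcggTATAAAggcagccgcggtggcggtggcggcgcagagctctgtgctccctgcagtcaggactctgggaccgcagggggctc

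These windows differed in composition. WNT9A's held 53 CpG dinucleotides, a number reached by 0.630% of the 27305 RefSeq promoters of this length, against 20 CpG in DKK1's, 29 in ROR1's and 31 in FZD8's. The median was 28.5 over the 36 genes and 14 over all promoters. Both strands were searched for 4 TCF/LEF words, which were CTTTGAA, its variant CTTTGAT, then CTTTGTA, and lastly CTTTGTT, for an AP-1 word (TGANTCA), an E-box (CACGTG) and a TATA word (TATAAA); none of these words contains another. TCF/LEF words were in 13.9% of all promoters and in 2 of the 36 windows, DKK1's (95 and 76 bases before the start) and WNT3's (20 bases after it). The TATA word was in 12% of all promoters and in 3 windows: DKK1's, FZD8's and TCF7's. The AP-1 word (7.76% of all promoters) was in none of the 36 windows, and the E-box (7.43%) was in RSPO4's alone. WNT9A's and ROR1's windows held none of the words. A match is a description of the letters, and which start these cells used was not measured.

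The antagonist SFRP1 had the highest level of the group. Divided by the length of the longest coding transcript (GENCODE release 29), it stood at 98.7 CPM per kb in wild-type DMSO, and the co-receptor LRP6 came next with 20.0; these ranks held with the median transcript length as well. SFRP1 alone took 32.8% to 37.5% of the counts of the 53 genes, depending on the library. FZD7 (16.9 CPM per kb) and FZD6 (16.1) led the receptors, TCF7L2 (12.1) and LEF1 (11.6) the transcription factors, and WNT5A (11) the ligands. WNT5A was followed among the ligands by WNT10B (1.96) and WNT3 (1.20). WNT9A stood at 0.149 CPM per kb without JQ1 and at 1.36 with it in wild-type cells. With the median transcript length, FZD7 and FZD6 ranked below TCF7L2, LEF1, LRP5 and WNT5A, so the order of these neighbours rests on the length used.

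**Figure D1:**
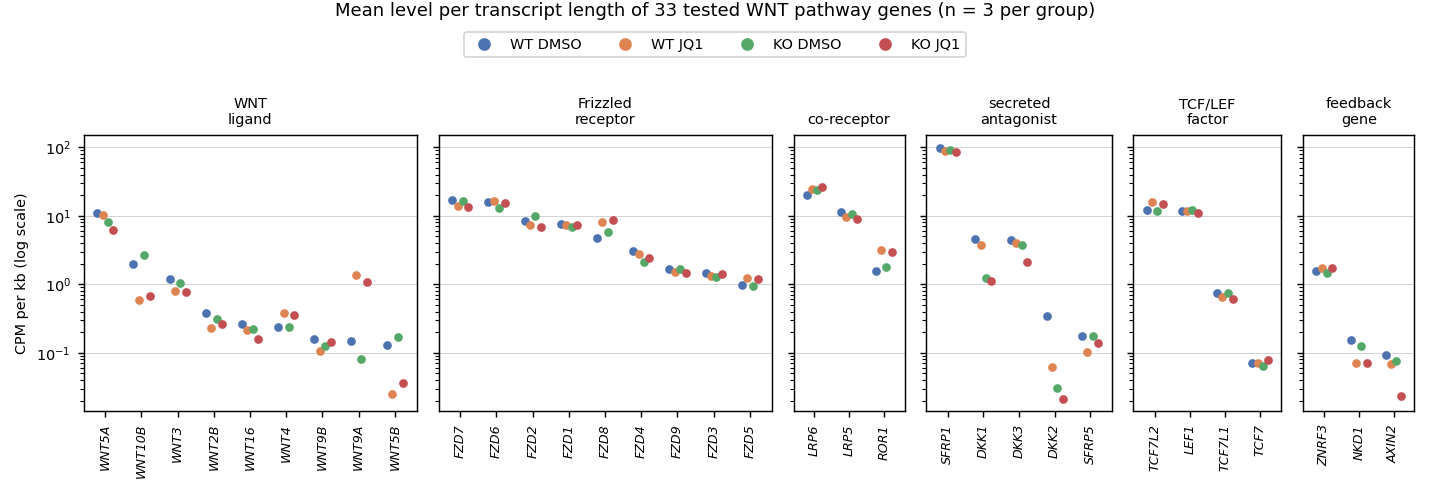
Mean level per kb of the longest coding transcript (log axis) of the 33 tested WNT pathway genes in the 4 groups (n = 3 each), sorted within each role by the wild-type DMSO level. SFRP1 is the highest point at 98.7 CPM per kb, WNT5A leads the ligands, and WNT9A's JQ1 points lie far above its DMSO points.

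JQ1 was compared with DMSO in each genotype, the question being how BET inhibition changed these genes and whether the knockout responded differently. In both genotypes WNT9A, FZD8, ROR1 and TCF7L2 rose, and WNT10B, WNT3, WNT5B and NKD1 fell. In wild-type cells 13 of the 33 tested genes passed an adjusted p of 0.05 (39.4%), 5 higher and 8 lower, where 33.1% of all tested genes passed (16.9% higher, 16.2% lower). In knockout cells 13 passed, again 5 higher and 8 lower, where 34.4% of all tested genes passed (16.7% higher, 17.8% lower). The share was close to the background in each. The 8 genes named first were 61.5% of each list, all in the same direction; over all tested genes, 76.2% of the wild-type and 73.3% of the knockout calls were shared, 99.8% of them in the same direction. WNT5B, and DKK2 in wild-type cells, passed the low-count filter through the groups where they were high, so their presence in these counts is no support. The median log2 fold change of the 33 was -0.16 in wild-type and -0.17 in knockout cells, beside -0.03 and -0.0035 for all tested genes.

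All adjusted p-values here come from edgeR's quasi-likelihood fit, adjusted by Benjamini-Hochberg over the 21698 genes, and changes are on the log2 scale with their standard errors (SE). Scaling by library totals alone moved the median of all genes by -0.13 in wild-type and by -0.12 in knockout cells, and it gave 4 higher and 14 lower WNT genes in wild-type and 4 and 11 in knockout cells. Without knockout JQ1 replicate 3, the library that stood apart, 15 WNT genes passed in wild-type and 16 in knockout cells. The share of all tested genes that passed in these settings is not given here, so these counts have no background beside them. The JQ1 comparison in wild-type cells and the knockout comparison in DMSO share the wild-type DMSO libraries, and the other comparisons share libraries likewise, so their values are given side by side for each gene.

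**Figure D2:**
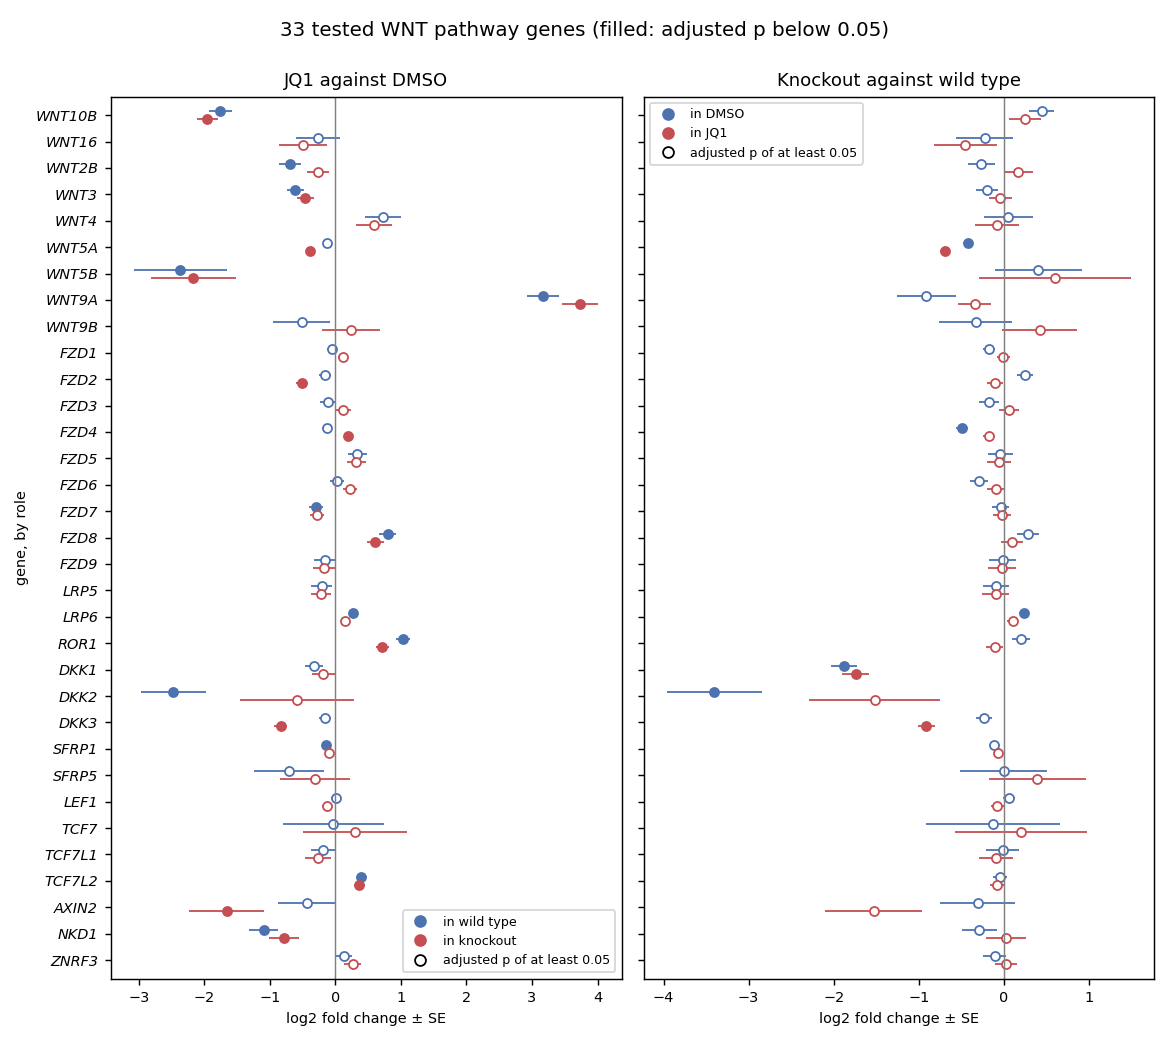
Log2 fold change ± SE of the 33 tested WNT pathway genes by role, for JQ1 against DMSO (left) and knockout against wild type (right); filled points passed an adjusted p of 0.05. WNT9A lies far to the right in both genotypes on the left, and DKK1 lies near -1.9 and -1.7 on the right under both treatments.

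Among the 19 ligand genes 9 were tested, and 5 of them passed with JQ1 in each genotype, beside 33.1% of all tested genes in wild-type and 34.4% in knockout cells. WNT5B, among the 5 in each genotype, passed the low-count filter through its DMSO libraries and adds no support to this count. WNT9A (chr1:227918656-227947898, minus strand) encodes a ligand known from joint formation. It stood at 0.596, 0.460 and 0.715 CPM in wild-type DMSO, 5.87, 5.42 and 4.94 CPM in wild-type JQ1, 0.192, 0.515 and 0.246 CPM in knockout DMSO and 3.27, 4.71 and 4.78 CPM in knockout JQ1. All 6 JQ1 libraries lay above all 6 DMSO libraries. The rise was 8.99-fold in wild-type cells, 3.17 (SE 0.24, adjusted p 2.03e-07) on the log2 scale, and 13.3-fold in knockout cells, 3.74 (SE 0.28, adjusted p 1.26e-07). The difference between these responses was 0.57 (SE 0.40, adjusted p 0.749). No other tested WNT gene rose by as much on this scale in either genotype.

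WNT10B (chr12:48965340-48971763, minus strand) encodes a ligand of the β-catenin pathway. It stood at 4.20, 4.11 and 5.03 CPM in wild-type DMSO, 1.22, 1.37 and 1.36 CPM in wild-type JQ1, 6.19, 4.91 and 7.06 CPM in knockout DMSO and 1.37, 1.62 and 1.68 CPM in knockout JQ1. The JQ1 libraries of both genotypes were below every DMSO library, and the log2 change was -1.75 (SE 0.17, adjusted p 1.99e-06) in wild-type and -1.95 (SE 0.17, adjusted p 5.01e-07) in knockout cells. WNT3 (chr17:46762506-46833154, minus strand), another β-catenin pathway ligand, stood at 3.79, 4.39 and 3.93 CPM in wild-type DMSO, 2.48, 2.82 and 2.60 CPM in wild-type JQ1, 3.17, 3.61 and 3.76 CPM in knockout DMSO and 2.74, 2.35 and 2.56 CPM in knockout JQ1. It fell, with a log2 change of -0.61 (SE 0.13, adjusted p 0.00209) in wild-type cells and -0.46 (SE 0.13, adjusted p 0.0158) in knockout cells, and in each genotype the DMSO and JQ1 libraries did not overlap. The knockout call was lost without knockout DMSO replicate 3 (adjusted p 0.0607) or knockout JQ1 replicate 2 (0.0583), with no low-count filter (0.0789) and with only the groups compared in the fit (0.0511).

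WNT2B (chr1:112466541-112530165, plus strand), a further ligand of the β-catenin pathway, stood at 3.99, 4.60 and 3.77 CPM in wild-type DMSO, 2.01, 2.49 and 3.11 CPM in wild-type JQ1, 3.17, 3.71 and 3.37 CPM in knockout DMSO and 2.63, 3.25 and 2.69 CPM in knockout JQ1. It fell by 0.69 (SE 0.16, adjusted p 0.00440) in wild-type cells, while the change in knockout cells was -0.26 (SE 0.17, adjusted p 0.259) and the difference between the responses 0.43 (SE 0.23, adjusted p 0.655). WNT2B overlaps ST7L on the opposite strand over 2661 exonic bases; ST7L had mean levels of 2.56, 2.03, 2.97 and 1.82 CPM in wild-type DMSO, wild-type JQ1, knockout DMSO and knockout JQ1 and passed in none of the comparisons. Whether the counting used the strand is not given in the sources used here, and the part of ST7L reads in the WNT2B values was not tested. WNT5B, named after its values were seen because it was below 1 CPM in every group, had 10, 10 and 9 counts in wild-type DMSO, 0, 3 and 2 in wild-type JQ1, 11, 12 and 12 in knockout DMSO and 0, 3 and 4 in knockout JQ1. It fell, with a log2 change of -2.37 (SE 0.71, adjusted p 0.0181) in wild-type and -2.17 (SE 0.65, adjusted p 0.0173) in knockout cells. WNT5B passed the low-count filter through its DMSO libraries. Its wild-type call was lost without replicate 2 of wild-type DMSO (adjusted p 0.0583) or replicate 1 (0.0769) or 3 (0.0550) of wild-type JQ1, its knockout call without knockout DMSO replicate 3 (0.050, just over the threshold) or knockout JQ1 replicate 1 (0.0602), and both with the authors' factors (0.157 and 0.301).

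WNT5A (chr3:55465715-55490539, minus strand), the ligand of β-catenin-independent signalling and the most abundant WNT here per length, was lower in the knockout under both treatments. It stood at 68.9, 67.2 and 68.6 CPM in wild-type DMSO, 62.3, 62.5 and 63.3 CPM in wild-type JQ1, 52.8, 47.6 and 52 CPM in knockout DMSO and 39, 40.9 and 36.8 CPM in knockout JQ1. Every knockout library was below every wild-type library, with knockout JQ1 the lowest group. The knockout effect was -0.43 (SE 0.06, adjusted p 3.51e-04) in DMSO and -0.69 (SE 0.06, adjusted p 3.81e-06) in JQ1. With JQ1 it fell by 0.39 (SE 0.06, adjusted p 1.65e-04) in knockout cells, and the change in wild-type cells was -0.12 (SE 0.06, adjusted p 0.137). The difference between the JQ1 responses was -0.27 (SE 0.08, adjusted p 0.380), so a different response was not shown. The 3 tested ligands that passed in no comparison were WNT4, WNT16 and WNT9B; WNT4, at 0.912 CPM in wild-type DMSO and 1.48 CPM in wild-type JQ1, had 0.72 (SE 0.27, adjusted p 0.0552) with JQ1.

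**Figure D3:**
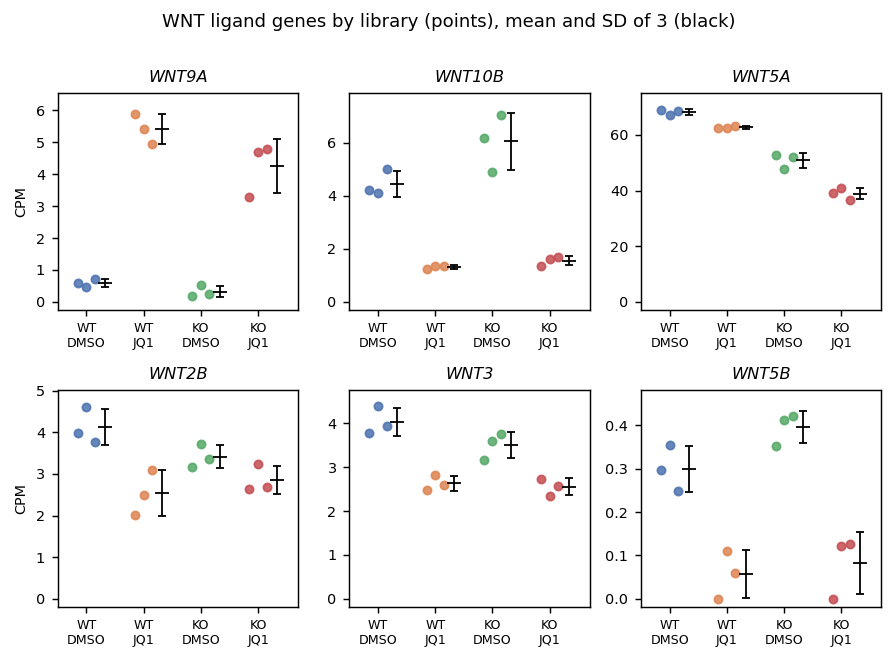
CPM of 6 WNT ligand genes in each of the 12 libraries (points), with the mean and SD of 3 (black); each panel has its own linear axis that includes 0. WNT9A's JQ1 libraries reach 3.27 to 5.87 CPM in both genotypes, WNT10B's DMSO libraries lie above its JQ1 libraries, and WNT5A steps down from wild type to knockout.

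Of the 10 Frizzled genes 9 were tested. FZD8 (chr10:35638249-35642278, minus strand), a β-catenin pathway receptor, stood at 18.2, 18.6 and 20.4 CPM in wild-type DMSO, 36, 35.2 and 28.5 CPM in wild-type JQ1, 20.9, 24.1 and 24.5 CPM in knockout DMSO and 31, 31.2 and 43.7 CPM in knockout JQ1. In each genotype the JQ1 libraries were above the DMSO libraries. It rose by 0.80 (SE 0.13, adjusted p 2.40e-04) in wild-type and by 0.61 (SE 0.13, adjusted p 0.00181) in knockout cells, and knockout JQ1 replicate 3 was its highest library. FZD2 (chr17:44557459-44559570, plus strand), a receptor with roles in both branches, stood at 17.3, 17.2 and 18.3 CPM in wild-type DMSO, 16.1, 16.3 and 14.8 CPM in wild-type JQ1, 19, 22.8 and 20.8 CPM in knockout DMSO and 14, 13.3 and 16.5 CPM in knockout JQ1. Its knockout DMSO libraries were the highest of the 12. It fell by 0.51 (SE 0.09, adjusted p 6.69e-04) in knockout cells, and the change in wild-type cells was -0.16 (SE 0.09, adjusted p 0.213).

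FZD4 (chr11:86945679-86955391, minus strand), the receptor of the vascular ligand norrin, stood at 22.3, 21.7 and 22.6 CPM in wild-type DMSO, 20.9, 20.0 and 20.1 CPM in wild-type JQ1, 16.4, 15.6 and 15.2 CPM in knockout DMSO and 17.5, 17.4 and 19.2 CPM in knockout JQ1. The knockout DMSO libraries were the lowest group and overlapped none of the wild-type libraries. The knockout effect in DMSO was -0.50 (SE 0.07, adjusted p 3.73e-04); in JQ1 it was -0.17 (SE 0.07, adjusted p 0.171). With JQ1 FZD4 rose by 0.20 (SE 0.07, adjusted p 0.0456) in knockout cells, a call lost in 17 of 22 alternative analyses, among them without knockout DMSO replicate 1 (0.0538), 2 (0.115) or 3 (0.124), without knockout JQ1 replicate 1 (0.0508) or 3 (0.132), and without any single wild-type library (0.0543 to 0.0644). FZD4 overlaps PRSS23, a protease gene on the opposite strand, over 1399 exonic bases. PRSS23 had mean levels of 57.2, 80.7, 50.5 and 83.9 CPM in the 4 groups in the order above and rose with JQ1 by 0.50 in wild-type and 0.73 in knockout cells, and its knockout effect in DMSO was -0.18 (adjusted p 0.121); its part in the FZD4 values was not tested.

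FZD7 (chr2:202034587-202038445, plus strand), the receptor with the highest level per length, stood at 63.2, 67.8 and 64.1 CPM in wild-type DMSO, 56.1, 53.5 and 49.4 CPM in wild-type JQ1, 57.6, 64 and 68.1 CPM in knockout DMSO and 46.6, 45.9 and 62.9 CPM in knockout JQ1. The wild-type DMSO libraries were above the wild-type JQ1 libraries, whereas knockout JQ1 replicate 3 lay among the knockout DMSO libraries. It fell by 0.30 (SE 0.11, adjusted p 0.0426) in wild-type cells, and the change in knockout cells was -0.28 (SE 0.11, adjusted p 0.05002). The wild-type call was lost in 12 of 22 alternatives, among them without any single library of the wild-type groups (adjusted p 0.0587 to 0.147) and without knockout DMSO replicate 2 (0.0548). The other 5 tested Frizzled genes, FZD1, FZD3, FZD5, FZD6 and FZD9, passed in no comparison, with mean levels from 3.45 to 62.2 CPM.

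Of the 3 tested co-receptors, ROR1 and LRP6 rose with JQ1 in wild-type cells. ROR1 (chr1:63774022-64181498, plus strand), a receptor tyrosine kinase-like protein bound by WNT5A, stood at 9.51, 8.32 and 9.10 CPM in wild-type DMSO, 19.1, 18.4 and 17.5 CPM in wild-type JQ1, 11, 8.82 and 11.1 CPM in knockout DMSO and 17.9, 17.9 and 15.3 CPM in knockout JQ1. All 6 JQ1 libraries were above all 6 DMSO libraries. The rise was 1.03 (SE 0.10, adjusted p 3.39e-06) in wild-type and 0.72 (SE 0.10, adjusted p 8.32e-05) in knockout cells. LRP6 (chr12:12116025-12267012, minus strand), the main β-catenin pathway co-receptor here, stood at 199.9, 198 and 204 CPM in wild-type DMSO, 226, 259 and 242 CPM in wild-type JQ1, 244, 227 and 236 CPM in knockout DMSO and 267, 273 and 240.1 CPM in knockout JQ1. Wild-type DMSO was its lowest group and overlapped no other. It rose with JQ1 by 0.27 (SE 0.06, adjusted p 0.00326) in wild-type cells, a call lost with library totals alone (adjusted p 0.111), and was higher in the knockout in DMSO by 0.23 (SE 0.06, adjusted p 0.0305).

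The LRP6 knockout call was lost in 8 of 22 alternatives, among them without any of the 3 wild-type DMSO libraries (adjusted p 0.0741 to 0.115), without knockout DMSO replicate 1 (0.107) or 3 (0.0962), and with library totals alone (0.124). LRP5, its paralogue, had mean levels from 46.7 to 58.2 CPM and passed in no comparison. Among the transcription factors, TCF7L2 (chr10:112950250-113167678, plus strand) stood at 47.2, 52.5 and 50.8 CPM in wild-type DMSO, 69.2, 65.5 and 63.3 CPM in wild-type JQ1, 43.7, 51.6 and 50.4 CPM in knockout DMSO and 56.6, 60.1 and 70.5 CPM in knockout JQ1. The JQ1 libraries of each genotype were above its DMSO libraries. It rose by 0.40 (SE 0.09, adjusted p 0.00244) in wild-type and by 0.36 (SE 0.09, adjusted p 0.00432) in knockout cells. LEF1 stood between 36.3 and 44.7 CPM in all 12 libraries and passed in no comparison, nor did TCF7L1 (1.81 to 2.20 CPM, group means) or TCF7 (0.217 to 0.262 CPM).

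**Figure D4:**
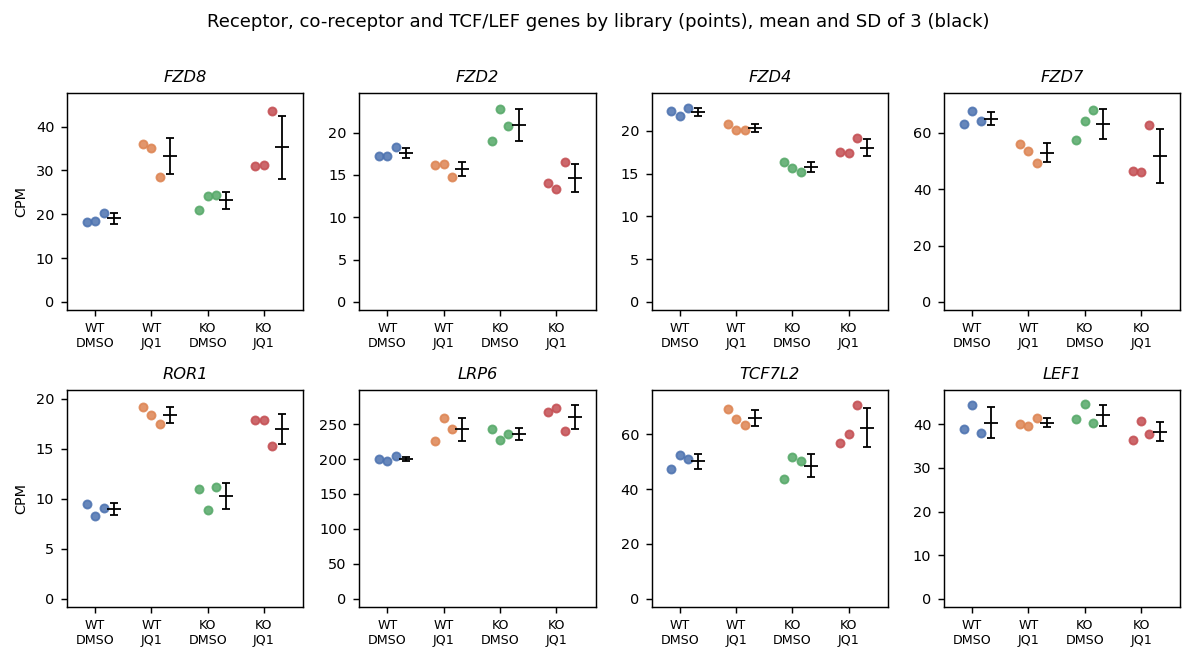
CPM of 4 Frizzled genes, 2 co-receptor genes and 2 TCF/LEF genes in each of the 12 libraries (points), with the mean and SD of 3 (black); each panel has its own linear axis that includes 0. FZD8, ROR1 and TCF7L2 are higher with JQ1 in both genotypes, FZD4 is lowest in knockout DMSO, and LEF1 is flat near 40 CPM.

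The knockout was compared with wild type under each treatment. In DMSO, WNT5A, FZD4, DKK1 and DKK2 were lower and LRP6 was higher. These 5 genes were 15.2% of the 33 tested, where 7.92% of all tested genes passed (3.47% higher, 4.44% lower). DKK2, 1 of the 5, passed the low-count filter through wild-type DMSO, where it was high, and adds no support to this count. In JQ1, WNT5A, DKK1 and DKK3 were lower and none was higher, 9.09% of the 33, where 8.57% of all tested genes passed (3.01% higher, 5.56% lower). WNT5A and DKK1 passed under both treatments. The median log2 fold change of the 33 was -0.12 in DMSO and -0.07 in JQ1, beside -0.0049 and -0.0015 for all tested genes. With library totals alone, 5 genes passed in DMSO and all were lower, and LRP6 did not pass. The share of all tested genes under that scaling is not given here.

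DKK1 (chr10:52314296-52318042, plus strand) encodes a secreted protein that binds LRP5 and LRP6 and blocks β-catenin signalling. It stood at 9.18, 7.19 and 8.44 CPM in wild-type DMSO, 6.63, 6.05 and 7.10 CPM in wild-type JQ1, 2.40, 1.72 and 2.60 CPM in knockout DMSO and 2.06, 1.79 and 2.06 CPM in knockout JQ1. All 6 knockout libraries were below all 6 wild-type libraries. The knockout was 3.69-fold lower in DMSO, -1.88 (SE 0.15, adjusted p 1.79e-06) on the log2 scale, and 3.34-fold lower in JQ1, -1.74 (SE 0.16, adjusted p 5.56e-06). JQ1 changed it by -0.33 (SE 0.14, adjusted p 0.0862) in wild-type and -0.18 (SE 0.17, adjusted p 0.459) in knockout cells, neither past the threshold. Both knockout calls held in all 22 alternatives. DKK1 overlaps the antisense gene PRKG1-AS1 over 212 exonic bases, which passed in no comparison.

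DKK2 (chr4:106921802-107283806, minus strand), which can act for or against LRP6 signalling depending on the cell, was detected above 1 CPM in wild-type DMSO alone. Its libraries held 41, 42 and 36 counts in wild-type DMSO, 8, 8 and 4 in wild-type JQ1, 6, 3 and 1 in knockout DMSO and 5, 1 and 0 in knockout JQ1, that is 1.22, 1.49 and 0.989 CPM in wild-type DMSO, 0.251, 0.297 and 0.118 CPM in wild-type JQ1, 0.192, 0.103 and 0.0351 CPM in knockout DMSO and 0.190, 0.0406 and 0 CPM in knockout JQ1. Every wild-type DMSO library was above every other library. It was lower with JQ1 in wild-type cells, -2.47 (SE 0.50, adjusted p 0.00139), and lower in the knockout in DMSO, -3.40 (SE 0.56, adjusted p 0.00121); these comparisons share the wild-type DMSO libraries. DKK2 passed the low-count filter through that group, and its other libraries held at most 8 counts. In limma on the authors' normalized signal the adjusted p was 0.0773 (pseudocount 1) or 0.134 (pseudocount 0.5) for JQ1 in wild-type cells, and 0.0544 (pseudocount 0.5) for the knockout. In the knockout the JQ1 change was -0.59 (SE 0.87, adjusted p 0.654), and in JQ1 the knockout effect was -1.52 (SE 0.77, adjusted p 0.288), neither past the threshold.

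DKK3 (chr11:11963106-12009769, minus strand) is a divergent family member, placed among the antagonists here by its symbol. It stood at 12.5, 11 and 11.8 CPM in wild-type DMSO, 10.3, 10.4 and 10.9 CPM in wild-type JQ1, 9.36, 9.89 and 10.8 CPM in knockout DMSO and 5.41, 5.56 and 5.82 CPM in knockout JQ1. The knockout JQ1 libraries were the lowest group, at about the same level in all 3, and the other 3 groups lay between 9.36 and 12.5 CPM. It fell with JQ1 by 0.84 (SE 0.10, adjusted p 9.55e-06) in knockout cells, beside -0.16 (SE 0.09, adjusted p 0.204) in wild-type cells. The knockout effect was -0.91 (SE 0.10, adjusted p 2.18e-05) in JQ1 and -0.23 (SE 0.09, adjusted p 0.153) in DMSO. The difference between the JQ1 responses was -0.68 (SE 0.13, adjusted p 0.0742). That difference passed with DESeq2 (adjusted p 0.00572), with no low-count filter (0.0345) and without knockout JQ1 replicate 3 (0.0402). In the other 18 of 21 alternatives it stayed over the threshold, with an adjusted p of up to 0.222.

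SFRP1, a WNT-binding antagonist, stood at 429, 451 and 450.2 CPM in wild-type DMSO, 405, 412 and 392 CPM in wild-type JQ1, 404, 402 and 421 CPM in knockout DMSO and 381, 368 and 402 CPM in knockout JQ1. The wild-type DMSO libraries were the highest group and overlapped no other. It fell with JQ1 by 0.14 (SE 0.05, adjusted p 0.0438) in wild-type cells, and this small change lost its call in 16 of 22 alternatives. Among those were leaving out any single library of the wild-type groups (adjusted p 0.0551 to 0.143), any knockout DMSO library (0.0532 to 0.0592) or knockout JQ1 replicate 1 (0.0519). SFRP5 was below 1 CPM in all groups and passed in no comparison.

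NKD1 (chr16:50548330-50649249, plus strand), which binds Dishevelled and restrains the signal, stood at 2.35, 3.12 and 2.42 CPM in wild-type DMSO, 1.35, 1.04 and 1.27 CPM in wild-type JQ1, 2.21, 2.16 and 2.04 CPM in knockout DMSO and 0.876, 1.10 and 1.71 CPM in knockout JQ1. In each genotype the JQ1 libraries were below the DMSO libraries. It fell, with a log2 change of -1.09 (SE 0.22, adjusted p 0.00133) in wild-type and -0.78 (SE 0.23, adjusted p 0.0145) in knockout cells; the knockout call was lost without knockout JQ1 replicate 1 (0.0619) or replicate 2 (0.0510). AXIN2, a scaffold of the β-catenin destruction complex and a common reporter of the pathway, was named after its values were seen, with 21, 6 and 12 counts in wild-type DMSO, 9, 6 and 12 in wild-type JQ1, 6, 10 and 12 in knockout DMSO and 3, 3 and 2 in knockout JQ1. It fell with JQ1 by 1.66 (SE 0.57, adjusted p 0.0347) in knockout cells, beside -0.44 (SE 0.44, adjusted p 0.494) in wild-type cells, where the libraries overlapped. The AXIN2 call was lost without knockout DMSO replicate 2 (0.0862) or 3 (0.126), without knockout JQ1 replicate 1 (0.0656), 2 (0.0592) or 3 (0.124), and with DESeq2 (0.0712). ZNRF3, a ubiquitin ligase that removes Frizzled receptors, had mean levels from 10 to 12 CPM and passed in no comparison.

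**Figure D5:**
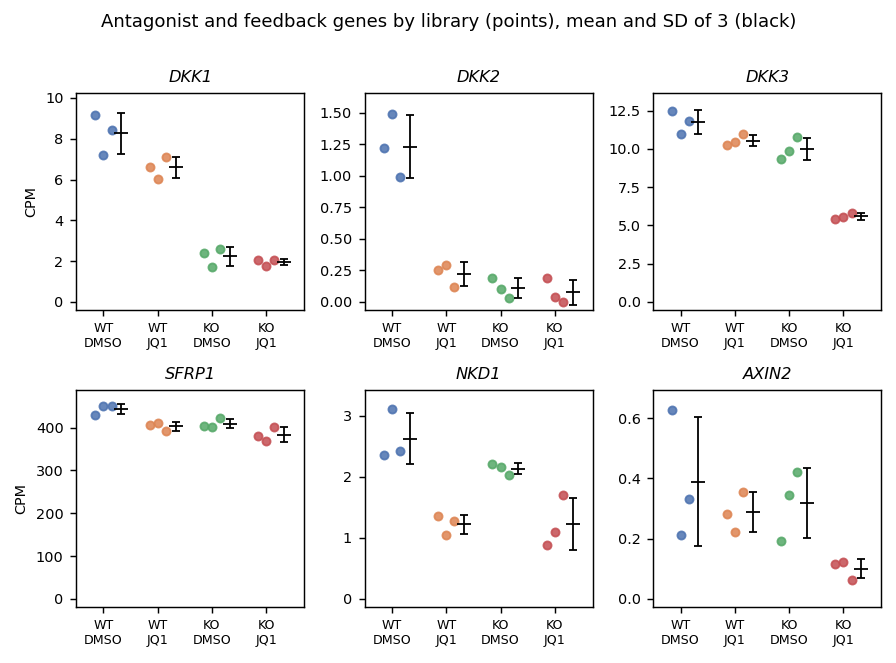
CPM of 4 secreted antagonist genes and the feedback genes NKD1 and AXIN2 in each of the 12 libraries (points), with the mean and SD of 3 (black); each panel has its own linear axis that includes 0. DKK1 is low in all 6 knockout libraries, DKK2 is above 0.9 CPM in wild-type DMSO alone, and DKK3 is lowest in knockout JQ1.

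Whether the JQ1 response differed between genotypes was tested as an interaction, for which edgeR passed 0.134% of all tested genes. By edgeR none of the 33 WNT genes passed. An unadjusted p below 0.05 was found for 4 of them, beside 1817 of all 21698 tested genes. DESeq2 gave an adjusted p for 25 of the 33, and its share over all genes is not given here. It passed 1, DKK3. The same single gene passed in edgeR with no low-count filter and without knockout JQ1 replicate 3. The genes with the smallest unadjusted p after DKK3 were FZD4, 0.32 (SE 0.10, adjusted p 0.336), WNT5A and FZD2, -0.35 (SE 0.13, adjusted p 0.498). The median of the 33 was 0.01, beside -0.0061 for all tested genes.

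WNT9A and WNT3A lie on the distal long arm of chromosome 1, 21.2 and 21.3 Mb beyond MAPKAPK2, the edited gene. Across the 300 tested genes beyond MAPKAPK2, the median knockout effect was -0.39 in DMSO and -0.37 in JQ1. Of these, 129 genes (43.0%) and 139 genes (46.3%) were called lower and 0 and 1 called higher. Over all tested genes the medians were -0.0049 and -0.0015. Of all tested genes, 4.44% and 5.56% were called lower and 3.47% and 3.01% higher. WNT9A's own knockout effect was -0.91 (SE 0.35, adjusted p 0.146) in DMSO and -0.34 (SE 0.20, adjusted p 0.358) in JQ1. Without knockout DMSO replicate 2 the former was -1.42 with an adjusted p of 0.0349. For JQ1, 51 distal genes (17.0%) were called lower and 48 higher in each genotype. Of all tested genes, 16.2% were called lower and 16.9% higher in wild-type cells, and 17.8% and 16.7% in knockout cells. The distal median was -0.09 in wild-type and -0.07 in knockout cells, beside -0.03 and -0.0035 for all tested genes. Called or not, 182 and 167 of the 300 were lower. WNT3A had 1 count in each of 3 libraries (replicate 2 of wild-type DMSO and of wild-type JQ1, and knockout DMSO replicate 1) and 0 in the other 9.

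The 20 untested genes were WNT1, WNT2, WNT3A, WNT6, WNT7A, WNT7B, WNT8A, WNT8B, WNT10A and WNT11, the receptors FZD10 and ROR2, the antagonists SFRP2, SFRP4 and DKK4, all 4 R-spondins, which enhance the signal by removing RNF43 and ZNRF3 from the membrane, and RNF43. None exceeded 13 counts in a library. RNF43, with 87 counts over the 12 libraries, and WNT8B, with 73, held the most. WNT2 and WNT8A had 0 counts in all libraries, where a count of 0 allows up to 0.00829 CPM (3 counts over the 12 libraries, counting error only).

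Other genes of the pathway were taken from 4 lists (66 genes, 54 tested). The lists were written with earlier results of these data known, so their shares are no independent support. With JQ1 28 passed in wild-type cells (13 higher, 15 lower) and 25 in knockout cells (9 higher, 16 lower), which was 51.9% and 46.3% of the 54, beside 33.1% and 34.4% of all tested genes. The median log2 fold change of the 54 was -0.02 and -0.09. The planar polarity and non-canonical list had 8 of 12 changed in wild-type cells (5 higher, 3 lower) and 6 of 12 in knockout cells (3 and 3). The cytoplasmic and nuclear core had 13 of 25 in each (6 higher and 7 lower, and 5 and 8), the further feedback genes and targets 4 and 3 of 7, and the secretion and extracellular list 3 of 10 in each, all lower.

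Among the JQ1 changes, DAAM2, a formin that works with Dishevelled, fell, with a log2 change of -1.46 (SE 0.09, adjusted p 1.61e-08) in wild-type and -1.83 (SE 0.09, adjusted p 3.21e-09) in knockout cells. VANGL2, a planar polarity membrane protein, fell, with log2 changes of -2.01 (SE 0.13, adjusted p 3.99e-08) and -2.39 (SE 0.14, adjusted p 8.76e-09). CCND1, the cyclin D1 gene, rose by 0.71 (SE 0.05, adjusted p 1.56e-07) and 0.99 (SE 0.05, adjusted p 4.26e-09). GSK3B, the kinase that marks β-catenin for destruction, fell, with log2 changes of -0.54 (SE 0.05, adjusted p 1.47e-06) and -0.78 (SE 0.05, adjusted p 3.10e-08).

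Against wild type, 13 of the 54 pathway genes changed in the knockout in DMSO (9 higher, 4 lower) and 9 in JQ1 (6 higher, 3 lower). These were 24.1% and 16.7% of the 54, beside 7.92% and 8.57% of all tested genes. With lists written after earlier results were known, these shares are no independent support either. The medians of the 54 were 0.0017 and -0.05. All core genes that changed were higher, 5 of 25 (20%) in DMSO and 3 of 25 (12%) in JQ1. Of all tested genes, 3.47% and 3.01% were called higher. In DMSO, TLE4, a co-repressor that binds TCF/LEF factors, was higher by 0.63 (SE 0.08, adjusted p 2.37e-04) and in JQ1 by 0.36 (SE 0.09, adjusted p 0.0187). GSK3B was higher by 0.32 (SE 0.05, adjusted p 7.72e-04) in DMSO, and its knockout effect in JQ1 was 0.09 (SE 0.05, adjusted p 0.351). CELSR3, a planar polarity cadherin, was higher by 1.00 (SE 0.14, adjusted p 2.62e-04) in DMSO and 0.78 (SE 0.13, adjusted p 0.00161) in JQ1. DAAM2 was lower, with -0.81 (SE 0.08, adjusted p 1.94e-05) in DMSO and -1.18 (SE 0.10, adjusted p 1.79e-06) in JQ1. The glypican gene GPC4 was higher by 0.75 (SE 0.14, adjusted p 0.00304) in DMSO and 0.82 (SE 0.15, adjusted p 0.00211) in JQ1, and TNFRSF19, a receptor gene known as a target of the pathway, by 0.26 (SE 0.05, adjusted p 0.00562) and 0.26 (SE 0.05, adjusted p 0.00679). For the interaction edgeR passed none of the 54, beside 0.134% of all tested genes. An unadjusted p below 0.05 was found for 5 of the 54, beside 1817 of all 21698 tested genes. DESeq2 passed 1 of the 52 for which it gave an adjusted p, and its share over all genes is not given here.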

How the data were processed

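RNA was sequenced from 12 A375 libraries in 4 groups of 3; groups came from the genotype and treatment labels (the titles call the DMSO samples untreated), and the replicate number from the titles. Per the labels' protocols, total RNA was depleted of ribosomal RNA and directional libraries were made. The submitters' processing notes name Trim Galore, cutadapt, FastQC, MultiQC, kallisto, DESeq2 and GRCh38.p10, with no tool versions. The authors deposited estimated counts per gene symbol and, for 32828 genes, a normalized signal, which equals the rounded count over a factor that varies by gene and library. The annotation and the use of strand in counting are not given in the sources used here. Genes with near-identical or overlapping partners are therefore uncertain.

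For this work the estimated counts, which the plan had assumed to be raw counts, were rounded. edgeR's filterByExpr left 21698 genes; TMM scaling and quasi-likelihood tests with 1 mean per group over all 12 libraries followed (edgeR 4.0.16, limma 3.58.1, R 4.3.3), with Benjamini-Hochberg adjustment over those genes and a threshold of 0.05. Each SE is the size of the log2 fold change over the square root of F. There were 5 contrasts: JQ1 in each genotype, knockout in each treatment, and the interaction. The scripts were tested on simulated counts. Alternatives were DESeq2, library totals, other filters, the authors' factors, limma on the signal, a threshold of 0.01, a replicate block, fits of only the groups compared, and leaving out each library.

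The genes and lists were chosen with earlier results of these data known. Library values are given for genes past the threshold in a contrast with at least 1 CPM in a group, and for WNT3A and WNT9A. Of the 4 pathway lists, up to 4 genes per contrast with the smallest adjusted p and at least 1 CPM were named. Coordinates, lengths and overlaps are from GENCODE release 29 (GRCh38); a single promoter per symbol, the first listed, was used. NKD1, TCF7L2, AXIN2 and FZD8 also overlap small annotated genes. Overlapping partners were looked up after the gene values were seen.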

Additional observations from a re-analysis of the deposited data

How the results depend on the processing

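Over 22 alternatives, 22 of the 34 calls of WNT genes across the 5 contrasts kept their direction and their side of the threshold in all of them, among them both JQ1 calls of WNT9A, WNT10B, FZD8, ROR1 and TCF7L2, both knockout calls of WNT5A and DKK1, and the DKK3 calls. A threshold of 0.01 left 8 genes for JQ1 in knockout cells. For the interaction, DESeq2 passed 1 of the 25 WNT genes with an adjusted p, and edgeR with no low-count filter passed 1 of 51. Leaving out 1 library gave 10 to 15 genes for JQ1 in wild-type cells, 9 to 16 for JQ1 in knockout cells, 4 to 7 for the knockout in DMSO, 3 to 3 in JQ1, and 0 to 1 for the interaction. The lowest counts were without wild-type JQ1 replicate 1 (10) and knockout DMSO replicate 3 (9), and the highest without knockout JQ1 replicate 3 (15 and 16). For none of the alternatives is the share of all tested genes given, so their counts do not show a change particular to the WNT genes. The 0.14 difference between DKK1's JQ1 responses ran from -0.025 to 0.26 with single libraries left out and was negative without knockout DMSO replicate 2; it passed in no analysis.

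Replicate numbers did not pair the samples: the 18 pairs of same-numbered libraries correlated at -0.115 to 0.0786 in their deviations from the group means, and 2 of 12 libraries correlated best with their own number. With the replicate block, 12, 12, 4, 3 and 0 genes passed in the 5 contrasts. Fitting only the groups compared could not be done for the interaction, which uses all 4. WNT5B had 0 to 12 counts per library, AXIN2 2 to 21, and DKK2 0 to 8 outside wild-type DMSO, which limits the precision of their values.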

Other observations

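ROR2, the receptor through which WNT5A is best known to act without β-catenin, was too low to test and was singled out after its values were seen. Its libraries held 1, 5 and 8 counts in wild-type DMSO, 7, 1 and 3 in wild-type JQ1, 0, 0 and 0 in knockout DMSO and 1, 0 and 0 in knockout JQ1, 25 counts in wild-type and 1 in knockout cells. Every wild-type library held at least 1 count, and 5 of 6 knockout libraries held 0. ROR2 was chosen on these counts, so no test is given for it.

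The normalization factors implied by the deposited signal varied for DKK2: relative to each library's median they ran from 0.431 to 1.99 over the 12 libraries. They also varied for other tested WNT genes, among them WNT5B (0.343 to 1.38), AXIN2 (0.62 to 1.26) and WNT16 (0.788 to 1.36).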
